A study of Mus musculus with 10 samples.

Results

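SWI/SNF complexes (also called BAF complexes) are chromatin remodelers that use ATP to slide or evict nucleosomes. Each complex is built around 1 ATPase, SMARCA4 (BRG1) or SMARCA2 (BRM). SMARCB1, SMARCC1, SMARCC2 and SMARCD1 are core subunits of the canonical and polybromo forms. Canonical BAF complexes carry ARID1A or ARID1B, and the polybromo form (PBAF) carries ARID2 and PBRM1, so the ARID subunits tell these forms apart. SMARCA4 is also a maternal factor of the early embryo. The 10 subunit genes described here (Smarca4, Smarca2, Smarcb1, Smarcc1, Smarcc2, Smarcd1, Arid1a, Arid1b, Arid2 and Pbrm1) were taken by gene name from the deposited TPM table and matched by gene identifier to the count table, which holds 55536 genes. All 10 were found, and all 10 passed the expression filter.

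RNA was sequenced from oocytes of female C57BL/6 mouse fetuses at E16.5, when oocytes are in meiotic prophase. The 5 heterozygous libraries (Taf4b-heterozygous, the control group, which itself carries 1 mutant allele) were compared with 5 deficient libraries (Taf4b-deficient). TAF4b belongs to TFIID, the general factor that binds core promoters, and is enriched in gonads. Parents of both groups were homozygous for Oct4-EGFP (B6;129S4-Pou5f1tm2Jae/J), whose fluorescence, with propidium iodide to leave out dead cells, was used to sort germ cells from fetal gonads, and each library carries 1 of 3 litter dates. Nothing in the labels says that the libraries of a genotype are separate embryos, and the p-values reflect only how much these libraries vary, in part perhaps technically.

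Total counts ran from 16707200 to 26983600 per library (rounded), and each subunit had at least 153 counts in every library. Germ cell markers (9 genes, among them Ddx4, Dazl, Sycp1 and Sycp3) summed to 5399 to 6961 CPM (counts scaled to library size) among heterozygotes and 4935 to 6736 CPM among deficient libraries. Within that list Pou5f1 itself was at 0.173 to 1.16 CPM, so its transcript does not mark these libraries. Markers of pregranulosa cells (8 genes), stroma (6), endothelium (5) and macrophages (5) each summed to 12.5 to 118 CPM. Erythroid markers (8 genes) were high in heterozygous 4 (719 CPM), heterozygous 5 (2083 CPM) and deficient 5 (1605 CPM), where the rest had 65.8 to 220 CPM. Taf4b averaged 174 ± 101 CPM among heterozygotes and 74.9 ± 9.86 CPM among deficient libraries (SD, n = 5 each), and heterozygous 4, at 65.7 CPM, lay within the deficient range. That library is therefore called the library labelled heterozygous 4. Without it, the log2 fold change was 0.66 for Arid1a (adjusted p = 0.300), 0.56 for Arid2 (adjusted p = 0.335), 0.02 for Smarca4 and 0.01 for Arid1b (edgeR's quasi-likelihood test), and 2 members were at an unadjusted p under 0.05. With all libraries 5 members were, beside 16.6% of all genes.

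The promoter regions of the subunits were looked at because TFIID acts there. RefSeq promoter sequence (GRCm38.p6) was available for 9 members in 10 entries, and Arid2 had none. Of these, 3 windows of 250 bases that end 1 base before a start site are shown, both Arid1a entries, since Arid1a had the smallest p of the members, and that of Smarca4, the subunit with the most counts. The first Arid1a window and that of Smarca4 lie just upstream of the annotated gene, the second Arid1a window lies within the gene, and all of them overlap no annotated exon. Capitals mark the GC box GGGCGG, the site of SP factors, or its reverse CCGCCC.
Arid1a, chr4:133756770-133757019, minus strand: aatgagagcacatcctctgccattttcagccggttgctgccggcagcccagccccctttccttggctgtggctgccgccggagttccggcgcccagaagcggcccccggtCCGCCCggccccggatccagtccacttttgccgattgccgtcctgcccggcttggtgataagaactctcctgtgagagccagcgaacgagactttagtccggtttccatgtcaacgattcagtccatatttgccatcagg
Arid1a, chr4:133753986-133754235, minus strand: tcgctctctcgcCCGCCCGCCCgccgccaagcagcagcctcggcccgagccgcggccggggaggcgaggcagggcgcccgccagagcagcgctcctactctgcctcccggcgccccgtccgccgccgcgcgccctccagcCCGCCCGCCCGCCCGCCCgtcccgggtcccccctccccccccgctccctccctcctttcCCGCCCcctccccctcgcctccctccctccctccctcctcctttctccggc
Smarca4, chr9:21615919-21616168, plus strand: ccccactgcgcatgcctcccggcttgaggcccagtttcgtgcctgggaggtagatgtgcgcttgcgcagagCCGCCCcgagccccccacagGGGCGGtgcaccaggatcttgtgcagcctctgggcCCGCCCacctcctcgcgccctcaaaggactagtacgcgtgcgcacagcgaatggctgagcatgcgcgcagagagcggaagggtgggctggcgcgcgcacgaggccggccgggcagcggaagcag
The upstream Arid1a window holds 1 GC box, the second Arid1a window 7, some of which overlap one another, and the Smarca4 window 3. Over all 10 entries, on both strands, the GC box was present in 8 (7 of 9 members), against 32.7% of 32851 promoter windows of the same length. Of these 10 entries, 6 overlap an annotated exon, so they are not all sequence upstream of a gene. The TATA box TATAAA was present in 0 of 10 (12.4% of all windows), the CCAAT box, bound by NFY, in 0 of 10 (33.8%) and the E-box CACGTG in 1 of 10, that of Pbrm1 (6.02%). GC content ran from 59.6% to 81.6% in the members' windows, against a median of 52.4%. A match in letters is a description of the window and not evidence that a factor binds there.

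How strongly the subunits were expressed relative to each other depended on the scale. Counts were divided by the length of the gene's exons (GENCODE M21, GRCm38, in which all 10 genes sit at the positions given in the deposited table) to give CPM per kb. On this scale Smarca4 was highest, at 77.1 ± 53.6 in heterozygous and 88.8 ± 20.01 in deficient libraries (SD, n = 5). Pbrm1 followed at 29.7 ± 6.24 and 27.5 ± 2.24, and Smarcc1 at 23.1 ± 5.91 and 17.4 ± 3.43 CPM per kb. Smarcb1, Arid2 and Arid1a came next, with means over all libraries of 10.995, 9.00 and 8.60 CPM per kb. These neighbours were not separated, since Smarcb1 was above Arid2 in 6 of 10 libraries and Arid2 above Arid1a in 7 of 10. Smarcd1 (4.40), Smarcc2 (2.74), Smarca2 (1.92) and Arid1b (1.38 CPM per kb) closed the order, each above the next in 10, 10 and 9 of 10 libraries.

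The deposited TPM values, which are also scaled by length, gave another order. Arid2 was highest at 351 ± 31.2 TPM in heterozygous and 494 ± 45.0 TPM in deficient libraries (SD, n = 5), and Arid1a second at 186 ± 28.3 and 276 ± 17.8 TPM, followed by Smarca4 at 95.4 ± 55.8 and 107 ± 16.499 TPM. TPM lay 1.21 to 1.40 times above CPM per kb for Smarca4, Smarcb1, Smarcc1, Smarcc2, Smarcd1 and Pbrm1, near the median of 1.23 over 21592 genes. The other members lay far above it, by 15.1 times for Smarca2, 18.9 for Arid1b, 26.9 for Arid1a and 47.0 for Arid2, the 95.4th to 98.6th percentile of all genes. Each of these 4 genes has an annotated transcript of 418 to 809 bases beside ones of 5921 to 11325 bases, and 5 of the other 6 members have one of 322 to 603 bases too. Why the scales part for these genes was not tested.

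**Figure D1:**
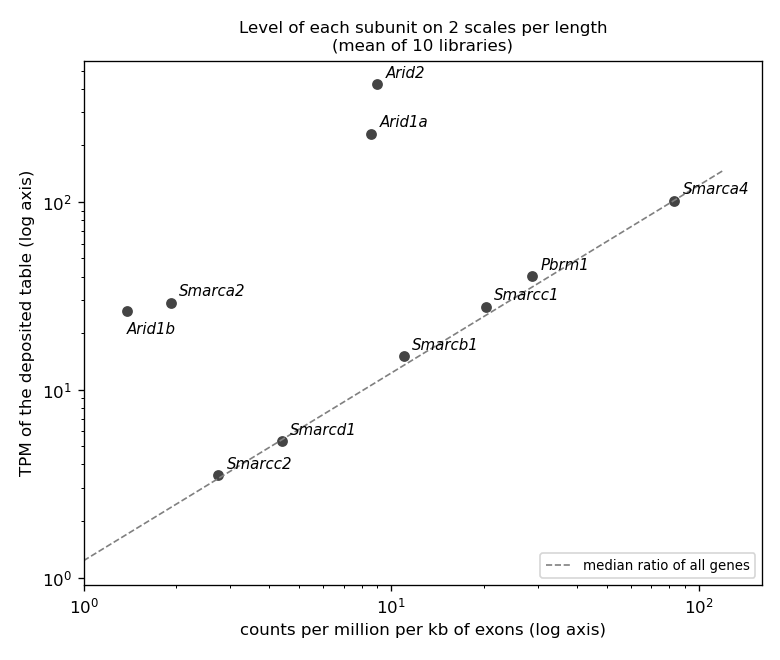
Mean level of each subunit over the 10 libraries, as CPM per kb of exons (x axis, log scale) and as deposited TPM (y axis, log scale). The dashed line is the median ratio of all genes, 1.23, and Smarca2, Arid1b, Arid1a and Arid2 lie 15.1 to 47.0 times above equality.

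Between genotypes, Arid1a and Arid2 stood out from the other subunits by values that did not overlap. Both were higher in every deficient library than in any heterozygous library, by a log2 fold change of 0.69 ± 0.15 (SE) for Arid1a and 0.61 ± 0.16 (SE) for Arid2. Of all 19244 genes tested, 1.94% did not overlap with the deficient libraries higher, and 1.6% with them lower, which held for 0 members. No member passed the threshold by edgeR's quasi-likelihood test with Benjamini-Hochberg adjustment, in which 0 of 19244 genes were called (0% of genes). At an unadjusted p under 0.05 there were 3 members higher in deficient libraries (Arid1a, Arid2 and Smarcd1) and 2 lower (Smarca2 and Smarcb1), against 7.45% and 9.13% of all genes, 3190 in number. DESeq2 called 643 of 44743 genes (1.44%) and limma voom with quality weights 510 of 19244 (2.65%). Each had the same 2 members, Arid1a and Arid2, among them. The genes given to DESeq2 were not filtered by expression first, so its share also counts genes with few reads. The members' median log2 fold change was -0.03, and that of all genes -0.02.

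**Figure D2:**
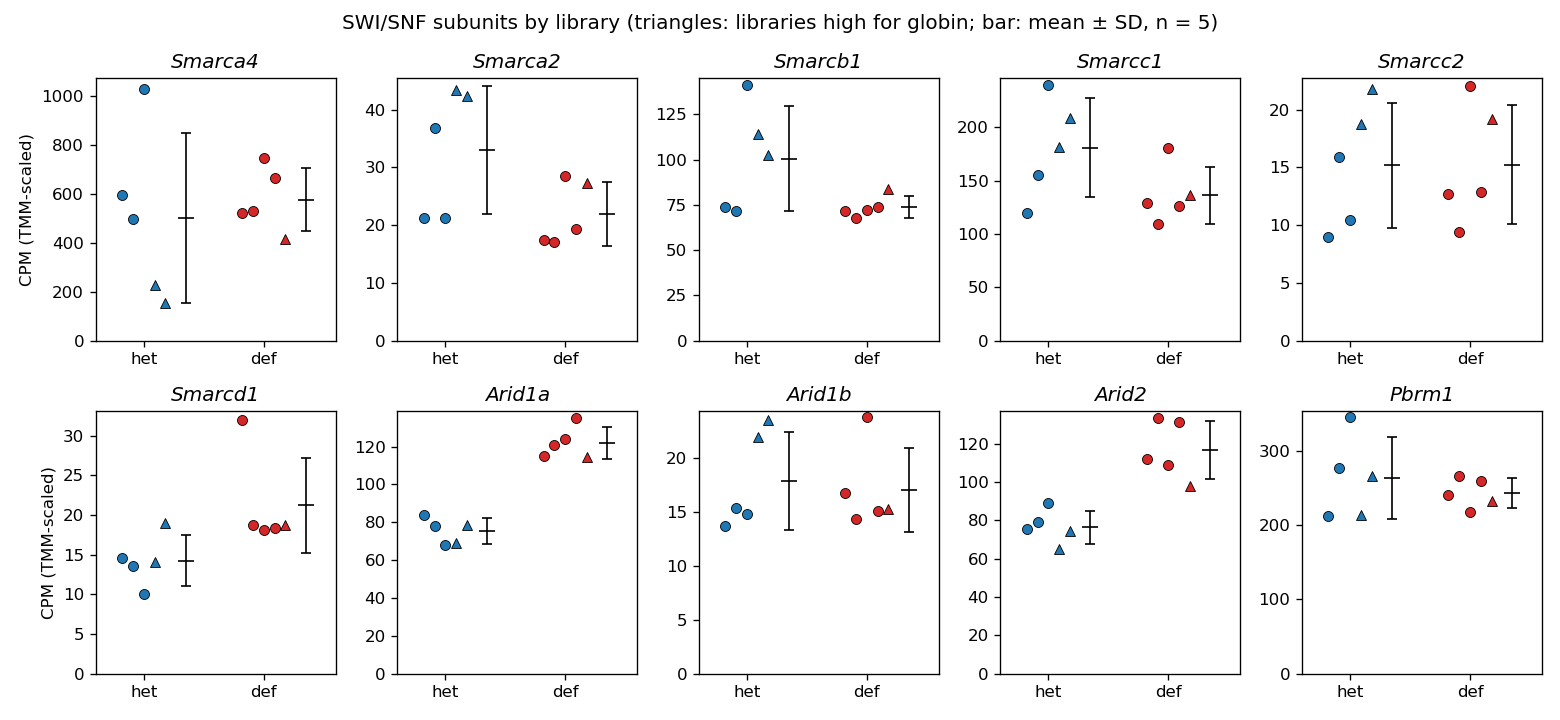
CPM of each subunit (y axis, TMM-scaled, from 0) in 5 Taf4b-heterozygous (het, blue) and 5 Taf4b-deficient (def, red) libraries, with mean ± SD (n = 5) beside the points. Triangles are heterozygous 4, heterozygous 5 and deficient 5, the libraries with high erythroid markers. Groups do not overlap for Arid1a (67.7 to 83.9 against 114 to 135 CPM) and Arid2 (65.0 to 88.9 against 98.0 to 133 CPM).

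Among the ARID subunits, Arid1a (ENSMUSG00000007880, chromosome 4, 133679008 to 133756769, minus strand) codes for the DNA-binding subunit found in most canonical BAF complexes. It was at 83.9, 78.0, 67.7, 69.3 and 78.5 CPM in heterozygous 1 to 5 and at 115, 121, 124, 135 and 114 CPM in deficient 1 to 5. The lowest deficient library was thus above the highest heterozygous one. Without the 3 libraries high for erythroid markers the log2 fold change was 0.69 for Arid1a and 0.58 for Arid2. Pregranulosa markers were also uneven between genotypes, with 7 of 8 higher in deficient libraries and a median log2 fold change of 0.65. Of them 2 (Fst and Wnt4) were higher at an unadjusted p under 0.05, against 7.45% of all genes. The summed pregranulosa level overlapped, at 33.2 to 96.3 CPM among heterozygotes and 31.0 to 118 CPM among deficient libraries. None of the 8 was at 0 in any library. Stroma (5 of 6 higher, median 0.44) and endothelium (4 of 5 higher, 0.23) leaned the same way. Macrophage markers (5 of 5 lower, -0.34), germ cell markers (6 of 8 tested lower, -0.26) and erythroid markers (6 of 6 tested lower, -0.48) leaned the other way. The part of these cell types in the Arid1a and Arid2 differences was not tested. The Arid1a means were 75.5 ± 6.83 and 122 ± 8.48 CPM (SD, n = 5), and edgeR's quasi-likelihood test gave an adjusted p of 0.116, at rank 70 of 19244 genes. By litter date in order of time, the log2 differences of Arid1a were 0.51, 0.83 and 0.66, from 1 or 2 libraries per genotype. Arid1a was called by DESeq2 (adjusted p = 0.00258), by limma voom with quality weights (adjusted p = 0.0378) and by edgeR without heterozygous 1 (adjusted p = 0.0395). The log2 fold change lay between 0.58 and 0.79 in all 25 alternatives, with adjusted p from 0.00258 to 0.961. In deposited TPM the groups did not overlap either, at 142 to 215 against 262 to 305 TPM.

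Arid2 (ENSMUSG00000033237, chromosome 15, 96287518 to 96404992, plus strand), the ARID subunit that marks PBAF, showed the same separation. Its values were 75.4, 78.9, 88.9, 65.0 and 74.2 CPM in heterozygous 1 to 5 and 112, 133, 109, 131 and 98.0 CPM in deficient 1 to 5. Deficient 5 was the lowest of its group and still above heterozygous 3, the highest of the other. The means were 76.5 ± 8.61 and 117 ± 15.3 CPM (SD, n = 5), and edgeR's quasi-likelihood test gave an adjusted p of 0.145. Differences by litter date were 0.54, 0.66 and 0.61 on the log2 scale. Arid2 was called by DESeq2 (adjusted p = 0.0429) and limma voom with quality weights (adjusted p = 0.0414), and its log2 fold change ran from 0.49 to 0.69 over the 25 alternatives, with adjusted p from 0.0414 to 0.961. Arid1a and Arid2 were each other's nearest member in profile over the 10 libraries, with a root mean square difference of 0.17 in centred log2 CPM, a description that includes their shared genotype difference. Of 44743 genes DESeq2 called 0.505% as higher, and edgeR without heterozygous 1 called 1.42% of 19766. As higher, limma voom with quality weights called 261 of 19244 genes.

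In the authors' deposited table, made with DESeq2 from the same counts, Arid1a had a log2 fold change of 0.65 (adjusted p = 0.00199) and Arid2 one of 0.54 (adjusted p = 0.0209). These were 2 of 10 members called there, both higher, beside 1.83% of the 31181 genes of the authors' deposited table, and the shared counts make this no independent support. The 31181 genes include some without an adjusted p, such as Actl6b, which could not be called. The deposited fold changes are rebuilt by a 3-level grouping of the libraries, which matches the labels' litter dates in 6 of 10 libraries. Its level 3 holds exactly the 3 libraries high for erythroid markers, so that level and high erythroid markers cannot be told apart. With that grouping in the edgeR model, 0 members were called, with adjusted p of 0.0522 for Arid1a and 0.0762 for Arid2, and 0.369% of genes were called as higher. Within its levels the differences were 0.49, 0.83 and 0.63 on the log2 scale for Arid1a and 0.70, 0.51 and 0.50 for Arid2.

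Arid1b, the alternative to Arid1a in canonical BAF, gave no such separation. It was at 13.7, 15.4, 14.8, 21.9 and 23.5 CPM in heterozygous 1 to 5 and at 16.7, 14.3, 23.8, 15.1 and 15.3 CPM in deficient 1 to 5. The library labelled heterozygous 4, heterozygous 5 and deficient 3 were high, and the groups overlapped throughout. Its log2 fold change was -0.07, with a 95% interval from -0.56 to 0.42 that holds differences of either direction. It was 0.01 without the library labelled heterozygous 4 and 0.26 without the 3 libraries high for erythroid markers. Pbrm1, the polybromo subunit that accompanies ARID2 in PBAF, ran from 212 to 346 CPM among heterozygotes and from 218 to 266 CPM in deficient libraries, with a log2 fold change of -0.11 and an interval from -0.51 to 0.28. Whether the difference of Arid2 is unlike that of Pbrm1 or Arid1b was not tested.

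**Figure D3:**
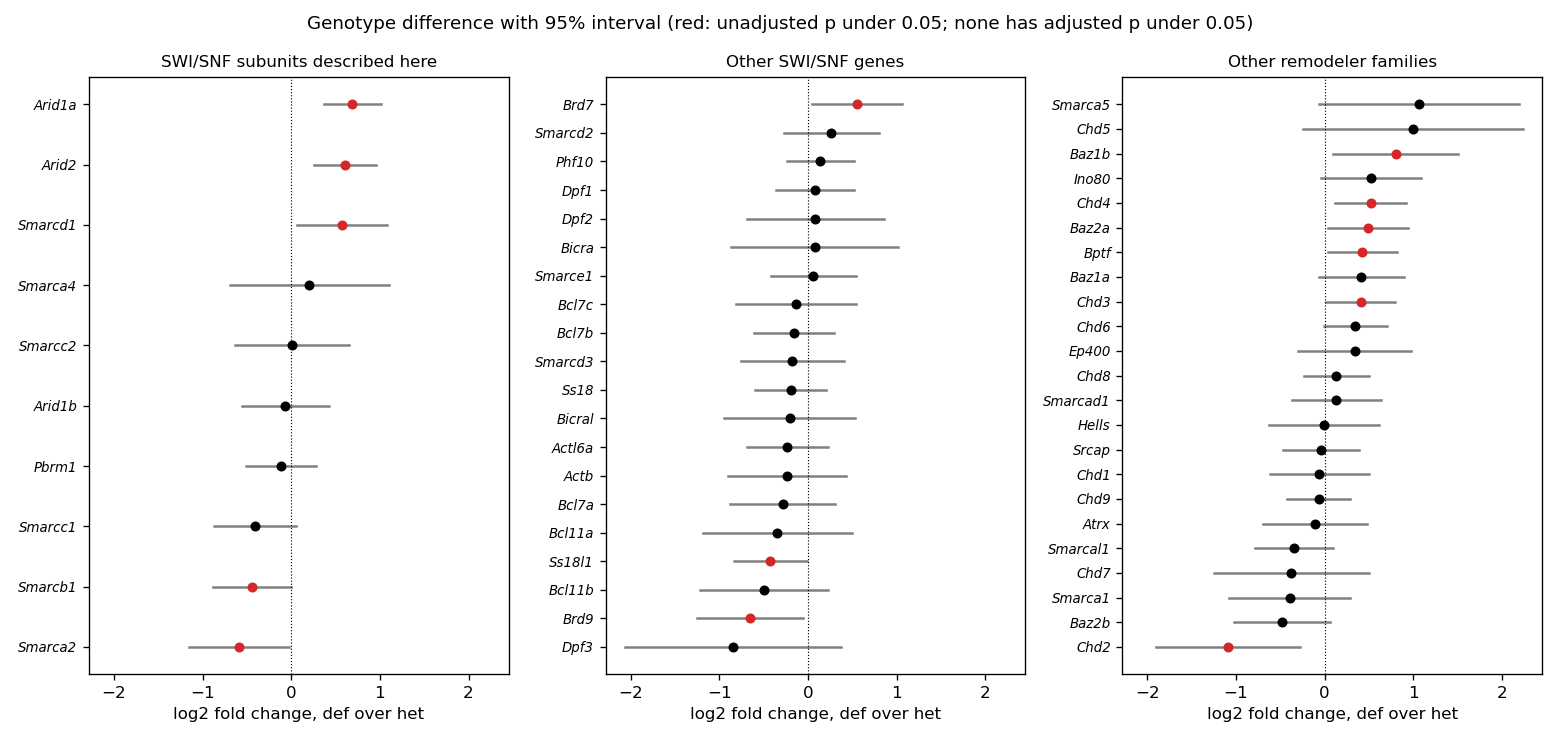
Log2 fold change of deficient over heterozygous libraries with its 95% interval (x axis) for the 10 subunits, 20 other SWI/SNF genes and 23 genes of other remodeler families (y axis). Red points have an unadjusted p under 0.05, and the points of Arid1a and Arid2 sit at 0.69 and 0.61.

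By the SD of log2 CPM over all libraries, the ATPase genes varied most among the members, Smarca4 at 0.81 and Smarca2 at 0.51, and neither passed the test. Smarcc2 came close to Smarca2, at 0.49. The median SD was 0.53 over all genes tested and 0.41 over those with a mean log2 CPM of at least 3, so only Smarca4 was far above both. Smarca4 (ENSMUSG00000032187, chromosome 9, 21616169 to 21704230, plus strand) was at 593, 497, 1026, 227 and 153 CPM in heterozygous 1 to 5 and at 520, 530, 744, 665 and 415 CPM in deficient 1 to 5. Heterozygous 5 and the library labelled heterozygous 4 were lowest of all, heterozygous 3 highest, and the highest value was 6.72 times the lowest. The SD of log2 CPM was 1.10 among heterozygous and 0.33 among deficient libraries. The genotype difference was 0.20 ± 0.42 (SE) on the log2 scale, with an interval from -0.69 to 1.10, and by litter date it was -0.06, 0.38 and 1.78. It was -0.03 without heterozygous 5, 0.02 without the library labelled heterozygous 4, 0.64 without heterozygous 3 and -0.20 without the 3 libraries high for erythroid markers. A test of whether the genotype difference varies with litter date (edgeR's quasi-likelihood test, genotype by date) called 0% of genes and no member, with 0 members at an unadjusted p under 0.05 beside 1.85% of genes.

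Smarca2 (ENSMUSG00000024921, chromosome 19, 26605050 to 26778322, plus strand), the other ATPase, was at 21.2, 36.8, 21.3, 43.3 and 42.4 CPM in heterozygous 1 to 5. In deficient 1 to 5 it was at 17.4, 17.1, 28.5, 19.4 and 27.3 CPM. The library labelled heterozygous 4 and heterozygous 5, lowest for Smarca4, were highest for Smarca2. Its log2 fold change of -0.59 ± 0.26 (SE) had an adjusted p of 0.283 (edgeR's quasi-likelihood test), and was -0.36 without the 3 libraries high for erythroid markers.

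The 3 libraries high for erythroid markers were also looked at for genes of oocyte stage, a list of 6. Between genotypes 0 of the 6 were called. Of them 4 (Sohlh1, Nobox, Lhx8 and Figla) were lower in deficient libraries at an unadjusted p under 0.05, against 9.13% of all genes. Stra8, a gene of meiotic entry, had 56.3, 10.3 and 156 CPM there, in the order heterozygous 4, heterozygous 5, deficient 5, and 221 to 965 CPM elsewhere. Nobox, which codes for an oocyte homeobox protein, had 84.8 and 166 CPM in the heterozygous pair but 5.36 CPM in deficient 5, within the 3.48 to 16.9 CPM of the others. The 3 libraries high for erythroid markers were also the lowest of all 10 for Smarca4. They had 227, 153 and 415 CPM in the same order, where the next lowest library had 497 CPM. The 415 CPM of deficient 5 was the lowest deficient value. Their pregranulosa sums of 88.5 to 96.6 CPM were above those of all other libraries except deficient 3, at 118 CPM. The part of erythroid RNA, pregranulosa RNA or oocyte stage in the Smarca4 and Smarca2 values was not tested, and in bulk libraries fewer cells of a type and less RNA per cell cannot be told apart.

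Within the ATPase pair, Smarca4 made up 84.4%, 72.3%, 90.3%, 50.3% and 41.1% of the summed TPM in heterozygous 1 to 5 and 85.3%, 85.7%, 83.5%, 86.9% and 74.7% in deficient 1 to 5. The means were 67.7% ± 21.4 and 83.2% ± 4.94 (SD, n = 5), and the difference of 15.5 percentage points did not pass a two-sided exact permutation test (p = 0.214, adjusted p = 0.286 over 4 shares). From counts per kb the share was 95.01% ± 4.42 and 98.2% ± 0.646 (SD, n = 5), since Smarca2 is among the genes whose TPM runs high. The level of the share thus depends on the scale, while heterozygous 5 was lowest on both, at 41.1% and 88.8%. Without the 3 libraries high for erythroid markers the TPM difference was 3.01 points.

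Smarcc1 supplied 90.0% ± 2.88 of Smarcc1 plus Smarcc2 TPM in heterozygous and 87.5% ± 2.13 in deficient libraries (SD, n = 5; exact permutation p = 0.175, adjusted p = 0.286). For Arid1a within Arid1a plus Arid1b the share was 87.1% ± 3.13 and 92.0% ± 1.65 (SD, n = 5). Its values ran from 83.5% to 90.8% among heterozygotes and from 89.3% to 93.5% among deficient libraries, so the groups overlapped, with an exact permutation p of 0.0159 and an adjusted p of 0.0635. From counts per kb it was 82.3% ± 4.07 and 88.7% ± 2.23 (SD, n = 5), with the same exact permutation p. Without the 3 libraries high for erythroid markers the TPM difference of 4.87 points was 2.63 points. Arid2 made up 62.2% ± 3.69 and 62.1% ± 2.64 of the TPM of the 3 ARID genes (SD, n = 5; exact permutation p = 0.944). Arid1a and Arid2 were both higher in deficient libraries, and this share, which also counts Arid1b, differed by -0.08 percentage points. From counts per kb it differed by 0.41 points. The smallest two-sided p that 5 against 5 libraries allow is 0.00794.

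**Figure D4:**
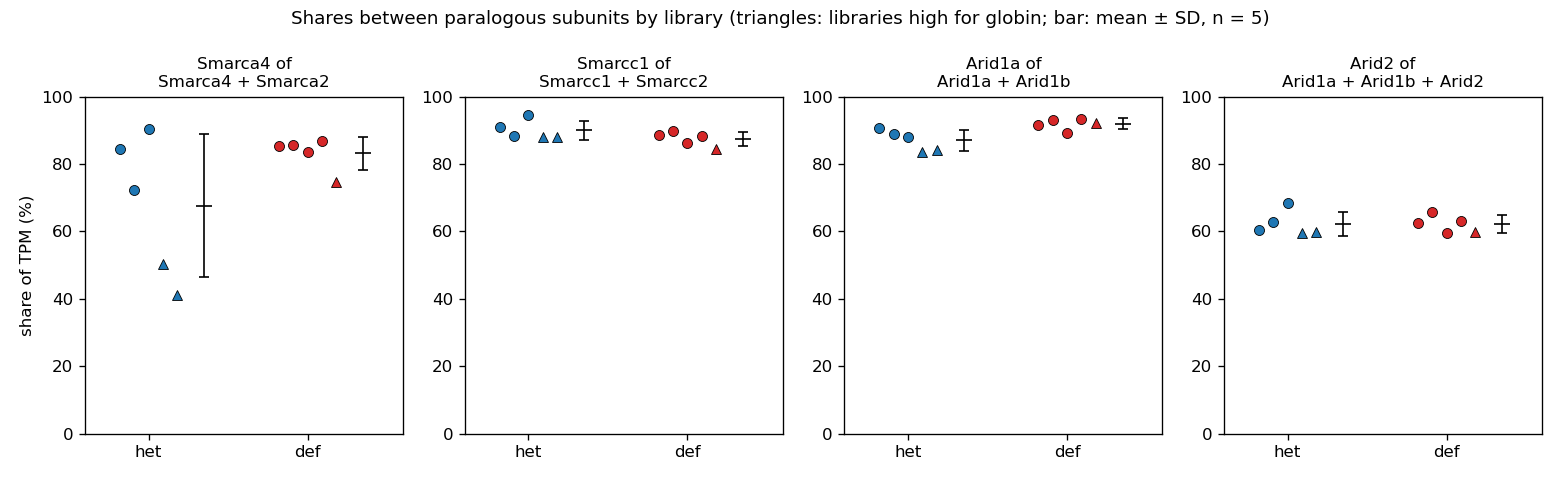
Share of summed TPM (y axis, percent, 0 to 100) held by Smarca4, Smarcc1, Arid1a and Arid2 within their sets, by library, with mean ± SD (n = 5); triangles are the 3 libraries high for erythroid markers. The Smarca4 share is 50.3% and 41.1% in 2 heterozygous libraries, and the Arid1a share lies at 83.5% to 90.8% against 89.3% to 93.5%.

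Of the core subunits, Smarcb1, the SNF5 homologue that anchors the complex to the nucleosome, was at 73.7, 71.4, 141, 114 and 102 CPM in heterozygous 1 to 5 and at 71.6, 67.7, 72.2, 74.1 and 83.6 CPM in deficient 1 to 5. Heterozygous 3, 4 and 5 lay above every deficient library, while heterozygous 1 and 2 lay within the deficient range. Its log2 fold change was -0.45 ± 0.20 (SE; adjusted p = 0.293 by edgeR's quasi-likelihood test), and by litter date the differences were -0.02, -0.86 and -0.38. Without the second litter date, which holds heterozygous 3 and the library labelled heterozygous 4, it was -0.11. Smarcc1, a scaffold subunit, had the profile most like that of Smarcb1 among the members. It ran from 120 to 239 CPM among heterozygotes and from 109 to 181 CPM in deficient libraries, with a log2 fold change of -0.41 ± 0.22 (SE) and an interval from -0.87 to 0.05. Smarcc1 shares 123 exon bases with Dhx30 on the opposite strand, whose reads there cannot be told apart without strand.

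Smarcc2, the paralogue of Smarcc1, ran from 9.01 to 21.8 CPM among heterozygotes and from 9.38 to 22.1 CPM in deficient libraries. Its log2 fold change of 0.01, with an interval from -0.64 to 0.66, took either sign over the alternatives. Smarcd1, which links the complex to transcription factors, was at 14.6, 13.5, 10.1, 14.0 and 19.0 CPM in heterozygous 1 to 5 and at 31.96, 18.8, 18.1, 18.4 and 18.7 CPM in deficient 1 to 5. Heterozygous 5 overlapped the deficient libraries, and deficient 1 lay far above the rest. The log2 fold change of 0.57 ± 0.23 (SE; adjusted p = 0.252 by edgeR's quasi-likelihood test) was 0.38 without deficient 1. Smarcd1 shares 287 exon bases with Gm17349 and 224 with Gm34939 on the opposite strand. As strand use in the counting is not known, its reads cannot be assigned to a strand, though those genes had 4 and 17 counts in all libraries together.

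**Figure D5:**
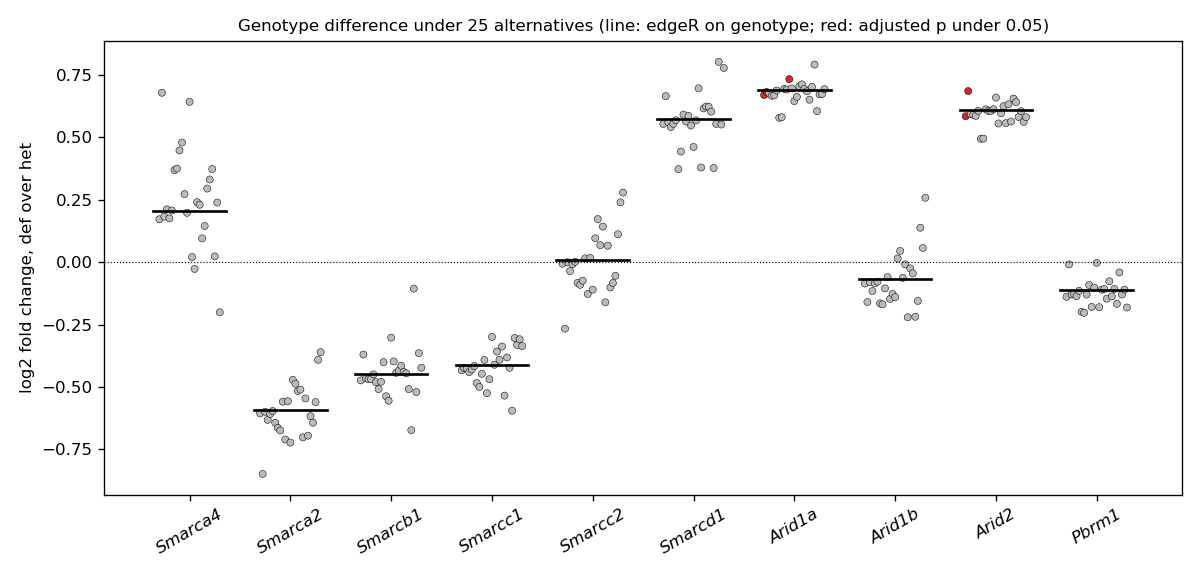
Log2 fold change of deficient over heterozygous libraries (y axis) for each subunit (x axis) under 25 alternatives of tool, scaling, filter, covariate and left-out libraries, with the black line at the edgeR value on genotype alone. Arid1a stays between 0.58 and 0.79 and Arid2 between 0.49 and 0.69, while Smarca4, Smarcc2 and Arid1b fall on both sides of 0.

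The list of other SWI/SNF genes held 21 genes, of which 20 were tested and 0 called, with a median log2 fold change of -0.19. At an unadjusted p under 0.05, 1 was higher and 2 lower, against 7.45% and 9.13% of all genes. Brd7, a bromodomain subunit of PBAF, was at 117 ± 38.1 and 172 ± 29.6 CPM among heterozygotes and deficient libraries (SD, n = 5; log2 fold change 0.55 ± 0.23, SE). Brd9, which marks the noncanonical BAF form, was at 58.0 ± 19.9 and 36.9 ± 10.1 CPM (SD, n = 5; log2 fold change -0.65 ± 0.28, SE). Ss18l1, a paralogue of Ss18, was at 21.1 ± 2.48 and 15.7 ± 2.87 CPM (SD, n = 5). Among the abundant ones, Actb (beta-actin, also outside the complex) had a log2 fold change of -0.24, the PHD-finger subunit gene Dpf2 one of 0.08 and the actin-like subunit gene Actl6a one of -0.23. Phf10, the other PBAF-specific subunit, was at 37.0 ± 5.91 and 40.7 ± 5.34 CPM (SD, n = 5), so of the PBAF genes Arid2, Pbrm1, Brd7 and Phf10 only Arid2 had groups that did not overlap; Phf10 was chosen after its values were seen.

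In the list of other remodeler families 23 of 23 genes were tested and 0 called, with a median log2 fold change of 0.13. At an unadjusted p under 0.05, 5 were higher and 1 lower, against 7.45% and 9.13% of all genes. The authors' deposited DESeq2 comparison did call genes of this list, all higher, beside 1.83% of its genes. These were Smarca5 (log2 fold change 0.96, adjusted p = 0.0165), Baz1b (0.69, adjusted p = 0.00707) and Chd5 (0.84, adjusted p = 0.0399). Chd2, a CHD-family ATPase, averaged 112 ± 59.6 CPM among heterozygotes and 52.6 ± 17.4 CPM among deficient libraries (SD, n = 5), and Chd4, the ATPase of the NuRD complex, at 87.8 ± 12.0 and 126 ± 26.0 CPM (SD, n = 5). None of the 23 genes, and none of the 20 SWI/SNF partners tested, had genotypes that did not overlap.

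The genes whose profile over the 10 libraries was most like that of Smarca4, among 9638 other genes of a mean log2 CPM of at least 3, were Swsap1, Tmem198, Vezt, Smg9 and Setdb2. Their root mean square difference from Smarca4 in centred log2 CPM was 0.12 for Swsap1 and 0.16 to 0.17 for the others. Swsap1, for example, was at 18.4 and 12.0 CPM in the library labelled heterozygous 4 and heterozygous 5, its lowest values, and at 90.2 CPM in heterozygous 3, its highest.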

How the data were processed

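RNA-seq counts, TPM and a DESeq2 comparison were deposited. The deposited counts are whole numbers. Per the submitters' processing notes, the tools were Trim Galore 0.5.0, HISAT2 2.1.0, SAMtools 1.9, featureCounts (Subread 1.6.2) and the build GRCm38. Strand and multi-mapping settings were not given in the sources used here. The deposited TPM came from StringTie 1.3.3b, per the same notes. The authors' deposited comparison lists, per the file headers, p-values raw and adjusted, the Wald score, the log2 change with its error and the mean normalized signal of each gene.

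Counts were tested across all genes with edgeR 4.0.16 in R 4.3.3 (quasi-likelihood, genotype alone, TMM scaling, filterByExpr, Benjamini-Hochberg, called under 0.05); CPM uses TMM-scaled library sizes. SE was derived from the log2 change and the root of F. Genes without a symbol (382) took 0.0632% to 0.0945% of counts. The alternatives were DESeq2 1.42.0, limma 3.58.1 (voom with quality weights, log2(TPM + 1), log2(TPM + 0.1)), other scalings and filters, a term for litter date or for replicate number, and fits that left out libraries or dates. The 3-level grouping, the exon-length scale and the fit without 3 libraries were added after the data were seen. The grouping was solved from the deposited fold changes, and a DESeq2 refit with it differed from them by a median of 0.000221. Shares used exact permutation in scipy 1.17.1. The test was tested on simulated data. No libraries held identical counts. Members and lists were chosen with earlier results of these data known. Named genes were all members, the 3 partners with the smallest p and the 3 with the highest TPM, the 2 other remodelers with the smallest p, and the 5 genes closest to Smarca4. Smarca5, Baz1b and Chd5 were added for their calls in the authors' deposited comparison.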

Additional observations from a re-analysis of the deposited data

Results flagged for a closer look

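In each genotype the 10 subunits and the 4 shares were looked at for a single library that stood apart from the other 4, which makes 28 groups, and chance marks about 1 in 20. In 3 groups a library did. Smarcd1 was at 31.96 CPM in deficient 1, far from the 18.1 to 18.8 CPM of the other deficient libraries. For Arid1b it was deficient 3, at 23.8 CPM where the rest had 14.3 to 16.7 CPM. The Smarca4 share of Smarca4 plus Smarca2 TPM was 74.7% in deficient 5, below the 83.5% to 86.9% of the other deficient libraries.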

How the results depend on the processing

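Arid1a and Arid2 kept their direction in all 25 alternatives, and so did Smarca2, Smarcb1, Smarcc1, Smarcd1 and Pbrm1. Called members numbered 2 (Arid1a and Arid2) with DESeq2 and with limma voom, and 0 to 1 when single libraries were left out, the 1 being Arid1a without heterozygous 1. Calls over all genes numbered 643 with DESeq2, 510 with limma voom, 251 with no filter, 104 with the deposited grouping, 1 with the replicate block and 0 to 606 without single libraries, the 606 without heterozygous 1 and at most 1 without any other. Members at an unadjusted p under 0.05 numbered 2 with limma on TPM at either pseudocount, 2 without the second litter date, 3 without the third, 3 with the deposited grouping, 3 without the libraries high for globin (the same 3 libraries as level 3 of that grouping) and 2 to 6 without single libraries. With edgeR on genotype alone and all libraries, members at that threshold numbered 5, beside 16.6% of all genes. Other remodelers called numbered 0 to 2 without single libraries, the 2 being Chd2 and Smarca5 without heterozygous 1. The replicate block called 0 members and no partner or other remodeler, and 4 members stayed at an unadjusted p under 0.05. Correlations of same-numbered deviations ran from -0.262 to 0.593, and 2 of 10 libraries correlated best with their own number, so the numbers were not taken as a pairing.

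Signs turned only where the value was near 0 beside its interval. For Smarca4 the log2 fold change was -0.027 to 0.64 without single libraries, lowest without heterozygous 5, and -0.20 without the libraries high for globin. For Smarcc2 it was -0.0060 with DESeq2, -0.27 with limma voom, -0.00027 with RLE scaling, -0.035 with upper quartile scaling, -0.0079 with no filter, -0.083 and -0.091 on TPM with a pseudocount of 1 and 0.1, -0.074 with litter date, -0.084 and -0.055 without the first and second dates, and -0.16 to 0.17 without single libraries. For Arid1b it was 0.14 without the third date, 0.057 with the deposited grouping, 0.26 without the libraries high for globin and -0.22 to 0.045 without single libraries. The Arid2 share difference was 0.41 points from counts per kb, 0.033 as a log2 ratio of CPM and -1.02 to 1.47 points without single libraries. The causes were not tested. Sign flips of the shares within replicate number (replicate block) gave differences of 15.5, -2.53, 4.87 and -0.077 points, and cannot go below a p of 0.0625.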

Other observations

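The genes whose deposited TPM ran far above their counts per kb, which include Arid1a, Arid2, Arid1b and Smarca2, were also unevenly spread between the genotypes. Of 18848 genes tested with a known ratio, 1422 (7.54%) had a TPM at least 10 times their CPM per kb. In these, 16.0% were higher in deficient libraries at an unadjusted p under 0.05 and 5.56% lower, against 7.48% and 9.29% of all 18848. Their median log2 fold change was 0.15, against -0.02. The threshold of 10 was chosen after the values were seen, and no test was run on this difference. Of the 4 members among them, Arid1a and Arid2 were higher in deficient libraries, Arid1b lay near 0 and Smarca2 was lower.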
